A study of Mus musculus with 4 samples.

Results

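The Keap1-NRF2 axis was followed here through 10 genes, namely Keap1, Nfe2l2 and 8 core targets of the transcription factor that Nfe2l2 encodes. They are 10 of the 18193 genes named on the array, and were represented by every probe set that the platform annotation maps to exactly 1 of these symbols, 21 of 45037 non-control probe sets. RNA came from CD4 single-positive thymocytes of mice in the B6 background, the thymic T cells that have settled on the CD4 lineage. The LM mice were CD4Cre- Cul3fl/fl and the KO mice CD4Cre+ Cul3fl/fl, with 2 arrays in each group, so both groups carried floxed Cul3 and differed in the Cre transgene. CD4-Cre is a transgene driven by regulatory sequences of the Cd4 gene and is active from a stage before the single-positive one. No array came from Cre-carrying mice without floxed Cul3, so the effect of the transgene itself and that of losing Cul3 cannot be told apart. The sort left out cells positive for CD25, for the PBS57-loaded CD1d tetramer or for the gamma delta T cell receptor, and the labels give no age for the mice. Nothing in the labels says whether both samples of a group were separate animals, so the spread within a group may be a technical matter. The p-values rest on that spread together with a variance trend estimated over all probe sets tested.

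Keap1 is a BTB-Kelch adaptor that holds NRF2, the protein product of Nfe2l2, against the Cul3 ubiquitin ligase, where NRF2 is marked for destruction by the proteasome. Oxidants and electrophiles modify cysteines of Keap1, and NRF2 then escapes degradation and enters the nucleus. There, with a small Maf partner, NRF2 binds antioxidant response elements near genes of thioredoxin, glutathione, quinone and heme metabolism. In T cells the thioredoxin and glutathione systems supply reducing power for DNA synthesis and keep activation-driven oxidants in check. The comparison of LM with KO arrays asks whether this classical substrate pathway of Cul3 differs at the RNA level, and NRF2 protein was not measured.

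Of the 10 genes, only Txnrd1 had probe sets past the threshold, 2 of its 3, at about 2.3-fold the LM signal. Gclm, Gclc, Gsr and Nqo1 each had a probe set whose signal was higher on both KO-labelled arrays than on both LM arrays, by 1.33-fold to 1.66-fold, and none of these passed. The largest of these folds, that of Nqo1, rested on LM signals near background, at 87.7 and 97.4. The signals of Keap1 and Nfe2l2 overlapped between the groups. Hmox1 and Srxn1 lay near background and the KO-labelled arrays disagreed on them, and both Slc7a11 probe sets were below background on every array. Signals were analysed as normalized log2(intensity + 16), which understates the differences of dim genes, and a probe set was tested if it exceeded background on at least 2 arrays. Background was set at the 95th percentile of probe sets for olfactory and vomeronasal receptors, a deposited intensity between 83.4 and 108.7 depending on the array.

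By that rule 15 of the 21 probe sets were tested, covering 9 of the 10 genes, and none of the 15 entered through 1 group alone. In limma with Benjamini-Hochberg adjustment over all 26914 probe sets tested, 2 of the 15 were called higher and 0 lower at an adjusted p of 0.05, with 6 at an unadjusted p below 0.05. Over all probe sets tested 0.197% were called, 0.108% higher and 0.0892% lower, and 7.70% lay at an unadjusted p below 0.05. Both KO-labelled arrays exceeded both LM arrays for 8 of the 15, against 18.1% of all probe sets tested, and both lay below for 0 of the 15, against 18.4%. The median difference over the 15 was 0.41 (log2), against -0.01 over all tested. Probe sets of 1 gene share their transcript and are not independent of each other, and 3 of the 15 belong to Txnrd1. The members were chosen with earlier results of these data known. Their shares and median therefore describe the list and do not test the axis.

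**Figure D1:**
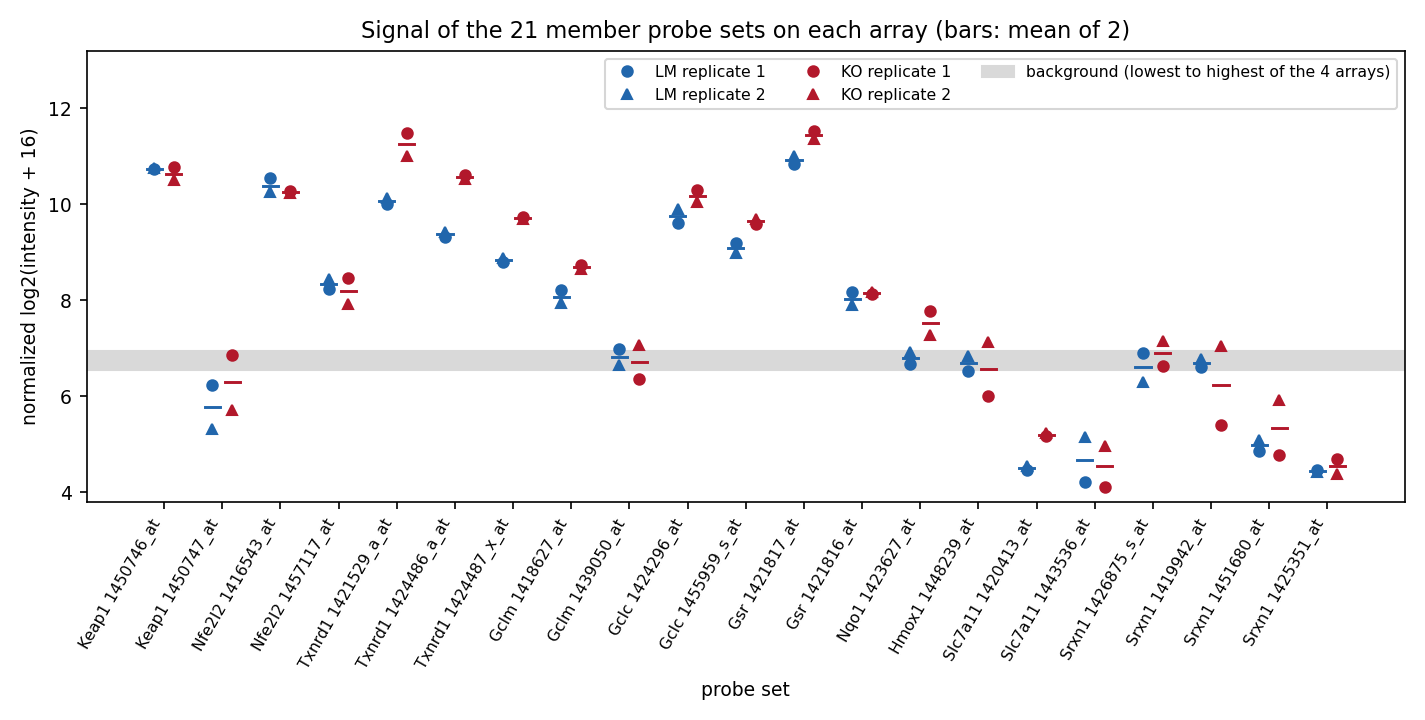
Normalized log2(intensity + 16) of each of the 21 member probe sets on each array, with LM in blue, arrays labelled KO in red, replicate 1 as circles, replicate 2 as triangles and short bars for the mean of 2 arrays. The grey band spans the background levels of the 4 arrays. The 3 Txnrd1 probe sets lie well above it with the groups apart, and both Slc7a11 probe sets lie below it. Hmox1 and the brighter Srxn1 probe sets lie around it, above the whole band only on KO replicate 2. Hmox1 and Srxn1 1419942_at also exceeded the background of LM replicate 2 itself, at 91 and 85.6 against 85.2.

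Cul3, the targeted gene, did not read lower on the arrays labelled KO. Its brightest probe set had deposited intensities of 5333 and 5724 in LM against 5380 and 5577 on the KO-labelled arrays. Over its 5 probe sets the differences ran from -0.15 to 0.31 (log2), with limma adjusted p-values from 0.701 to 0.997, and the groups overlapped for all 5. The lower ends of their 95% intervals allowed a KO-labelled signal of 65.0% to 97.4% of that in LM. Where the probe sets lie relative to the deleted part is not stated in the labels, and a probe set lying outside it would not measure the deletion directly. Every direction below is therefore that of the arrays labelled KO. For 3 of the 5 the sign changed when a single array was left out. The other two kept their sign but moved, 1422795_at to 0.08 with LM replicate 2 left out and 0.54 with LM replicate 1 left out, and 1434718_at to -0.29 with KO replicate 1 left out and -0.01 with KO replicate 2 left out.

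Markers of the labelled cell type were present, since 10 of 10 CD4 single-positive genes were above background on all 4 arrays, with summed deposited intensities of 61991 and 62682 in LM against 63241 and 59071 on the KO-labelled arrays. Most regulatory T cell markers read higher on the KO-labelled arrays: 10 of 11 measured genes had a positive difference, against 49.0% of all probe sets tested. The groups overlapped for Foxp3 (499 and 288.5 in LM against 794 and 363), Ctla4, Tnfrsf18 and Tnfrsf4. Gpr83 was lower on both KO-labelled arrays (-0.21) and the other measured genes were higher on both. Il2ra, the gene of the CD25 protein used in the sort, read 611 and 540 in LM and 963 and 948.5 on the KO-labelled arrays. Its difference was 0.72 (limma adjusted p = 0.290). Nrp1 had the largest difference of the list (1.01), at 163 and 253 in LM against 338 and 536. Only Izumo1r was called (0.58), at 4859 and 5022 in LM against 7706 and 7091. The summed intensity of the list was 18131 and 18399 in LM against 24592 and 22386. Cycling cell markers were lower: all 11 measured genes had a negative difference and 5 were called (Mki67, Top2a, Ccna2, Kif11 and Ube2c), with sums of 15800 and 17261 in LM against 7841 and 8513. Neither list overlaps the 10 genes, and the part of either shift in the results below was not tested. In bulk RNA, fewer cells of a type and less RNA per cell cannot be told apart. Lists for CD8 and double-positive, innate-like T, B, myeloid, erythroid and thymic epithelial cells held no called gene, and their sums were 4400 to 5130, 1439 to 1767, 238 to 362, 738 to 786, 120 to 338 and 285 to 421 over the 4 arrays. Of the CD8 and double-positive list 5 of 7 measured genes were above background on all arrays, Cd8a, Cd8b1, Dntt, Rag1 and Runx3, and Il2rb stands in both the regulatory and the innate-like list.

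The axis itself came first. Keap1, the substrate adaptor, gave deposited intensities of 1675 and 1720 in LM against 1743 and 1437 on the KO-labelled arrays with its brighter probe set. The highest and the lowest of these 4 values both came from KO-labelled arrays, so the groups overlapped. The difference was -0.09 ± 0.16 (log2, SE; limma adjusted p = 0.950), with a 95% interval of -0.44 to 0.26, which leaves room for a KO-labelled signal between 73.5% and 119.5% of the LM signal. Without KO replicate 2 the difference was 0.04. The second Keap1 probe set exceeded background only on KO replicate 1 and was not tested.

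Nfe2l2, which encodes NRF2, read 1466 and 1204 in LM and 1232 and 1180 on the KO-labelled arrays with its brighter probe set. LM replicate 1 was the highest of the 4, and the remaining arrays lay close together. The difference was -0.13 ± 0.18 (log2, SE; limma adjusted p = 0.928; 95% interval -0.52 to 0.25), or 0.01 without LM replicate 1. The dimmer probe set read 295 and 322 in LM and 333 and 233 on the KO-labelled arrays, a difference of -0.15 ± 0.28 (adjusted p = 0.957), and its sign also changed when KO replicate 2 was left out (0.12). With either probe set the groups overlapped, and the intervals of these 2 probe sets do not show that Nfe2l2 RNA was equal in the 2 groups.

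The thioredoxin arm held the called gene. Txnrd1 encodes cytosolic thioredoxin reductase, the selenoenzyme that uses NADPH to keep thioredoxin reduced. Its brightest probe set, 1421529_a_at, had deposited intensities of 1024 and 1108 in LM against 2876 and 2028 on the KO-labelled arrays. The groups were far apart, and KO replicate 1 was the higher of the KO-labelled arrays. The normalized mean rose from 10.07 ± 0.09 to 11.25 ± 0.35 (log2 mean ± SD, n = 2 each), a difference of 1.18 ± 0.18 (SE) or 2.26-fold, with a limma adjusted p of 0.0257.

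The next Txnrd1 probe set, 1424486_a_at, read 637 and 659 in LM and 1557 and 1444 on the KO-labelled arrays. Here the replicates of both groups lay close together. The mean rose from 9.37 ± 0.06 to 10.57 ± 0.07 (log2 mean ± SD, n = 2 each), a difference of 1.20 ± 0.18 (SE) or 2.29-fold, with a limma adjusted p of 0.0232. The dimmest, 1424487_x_at, read 443 and 441 in LM and 831 and 817 on the KO-labelled arrays, a 1.84-fold difference with the least replicate spread among them. Its difference of 0.88 ± 0.21 (log2, SE) did not pass the threshold (limma adjusted p = 0.188, unadjusted p = 0.00103). The 95% intervals of the 3 probe sets, 0.78 to 1.58, 0.80 to 1.59 and 0.43 to 1.33, overlapped, and the differences between probe sets were not tested.

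The calls of Txnrd1 depended on the model. Without the filter on dim probe sets the adjusted p of the 2 probe sets was 0.383 and 0.158, and without the intensity trend in eBayes it was 0.454 and 0.361, with the same differences. In each of the other alternatives, both stayed called wherever they were fitted, including each fit without 1 array, where the difference of 1421529_a_at ran from 0.93 to 1.43 and that of 1424486_a_at from 1.14 to 1.25. Taking the mean of all Txnrd1 probe sets gave 1.13 with a limma adjusted p of 0.0150, in a fit that called 0.32% of all genes, and the brightest probe set of each gene also gave a call, in a fit that called 0.284%.

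**Figure D2:**
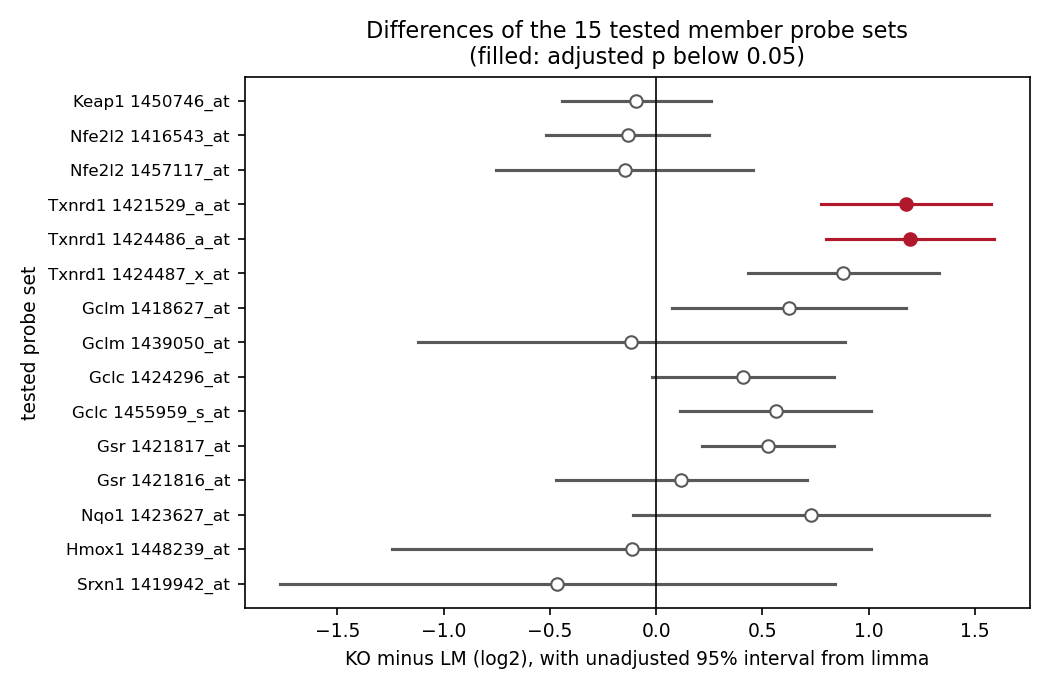
Difference between the arrays labelled KO and the LM arrays (log2) for the 15 tested member probe sets, with unadjusted 95% intervals from limma, 2 arrays per group. Filled red points mark the 2 Txnrd1 probe sets past an adjusted p of 0.05; the other 13 are open, and Hmox1, Srxn1 and the dimmer Gclm probe set have the widest intervals.

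RefSeq lists 3 start sites for Txnrd1 in GRCm38.p6. The sequence around each, from 250 bases before to 50 bases after the start, was searched on both strands for the core of the antioxidant response element as TGACNNNGC and for the related TGAGNNNGC, strings that exclude each other at a given position and strand. Either string occurs in 27.8% of all 32851 mouse promoters of that length, TGACNNNGC in 12.4% and TGAGNNNGC in 17.6%. Of the Txnrd1 sites only the second held one, a TGACNNNGC match on the opposite strand that begins 92 bases before the start. It is shown because it belongs to the called gene, with the match in capitals. Below it stands the promoter of Gclm, whose match begins 134 bases before the start.

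Txnrd1, second start site, chr10:82858956-82859255, plus strand: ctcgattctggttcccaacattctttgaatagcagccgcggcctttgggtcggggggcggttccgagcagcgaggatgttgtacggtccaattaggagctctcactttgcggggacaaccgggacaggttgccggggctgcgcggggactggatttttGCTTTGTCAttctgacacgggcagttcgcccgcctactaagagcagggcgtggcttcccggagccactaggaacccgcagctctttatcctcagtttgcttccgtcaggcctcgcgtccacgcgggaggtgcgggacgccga
Gclm, chr3:122245307-122245606, plus strand: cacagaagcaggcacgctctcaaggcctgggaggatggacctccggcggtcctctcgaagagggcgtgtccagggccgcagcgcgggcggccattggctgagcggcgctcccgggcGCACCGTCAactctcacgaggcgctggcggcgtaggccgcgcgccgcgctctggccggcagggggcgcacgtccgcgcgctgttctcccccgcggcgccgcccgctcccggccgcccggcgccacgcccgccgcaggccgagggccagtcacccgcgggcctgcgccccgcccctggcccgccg

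The glutathione arm contributed Gclm and Gclc, the modifier and catalytic subunits of the ligase that performs the rate-limiting step of glutathione synthesis, and Gsr, which regenerates reduced glutathione. The brighter Gclm probe set read 289.7 and 219 in LM and 409.7 and 391.5 on the KO-labelled arrays, so both KO-labelled arrays were higher. Its difference was 0.62 ± 0.25 (log2, SE), or 1.54-fold, with a limma adjusted p of 0.573 and an unadjusted 95% interval of 0.08 to 1.17. The dimmer one crossed background on 1 array of each group, at 114 and 78.2 in LM and 65.1 and 124.5 on the KO-labelled arrays, and differed by -0.12 ± 0.46. Its sign changed without LM replicate 1 (0.05) and without KO replicate 1 (0.24).

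Gclc gave the same order of groups with both of its probe sets. The brighter read 778 and 944 in LM and 1247 and 1027 on the KO-labelled arrays, a difference of 0.41 ± 0.20 (log2, SE; limma adjusted p = 0.662). The other read 575 and 481 in LM and 751 and 818 on the KO-labelled arrays, a difference of 0.56 ± 0.21 (adjusted p = 0.512), or 1.48-fold. The groups did not overlap in either, yet neither passed. The difference of the brighter probe set was 0.26 without LM replicate 1.

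Gsr came nearest to the threshold after Txnrd1. Its brighter probe set read 1789.6 and 2062 in LM and 2941.5 and 2591 on the KO-labelled arrays, with no overlap. The difference was 0.53 ± 0.14 (log2, SE), or 1.44-fold, with a 95% interval of 0.22 to 0.84, an unadjusted p of 0.00287 and a limma adjusted p of 0.280. The dimmer Gsr probe set read 280.1 and 211 in LM and 262 and 276 on the KO-labelled arrays, where the groups overlapped and the difference was 0.12 ± 0.27. That sign changed to -0.02 without LM replicate 2.

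Nqo1, the quinone reductase widely used as a readout of NRF2 activity, has a single probe set. It read 87.7 and 97.4 in LM, 1 of them above background, and 200.9 and 145 on the KO-labelled arrays, both above it. The difference of 0.73 ± 0.39 (log2, SE), or 1.66-fold, was larger than those of Gclc and Gsr but less precise, with a limma adjusted p of 0.712 and a 95% interval of -0.11 to 1.56. It was 0.47 without KO replicate 1 and 0.998 without KO replicate 2.

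Hmox1, the oxygenase that opens heme, read 77.5 and 91.0 in LM and 48.1 and 131.8 on the KO-labelled arrays. The lowest and the highest value both came from the KO-labelled group. The difference was -0.12 ± 0.52 (log2, SE; limma adjusted p = 0.989), and with KO replicate 2 left out it was -0.69, with KO replicate 1 left out 0.45. Macrophages are rich in Hmox1, and of the 12 myeloid markers 7 exceeded background on no array, Cd14, Adgre1 and the complement genes C1qa, C1qb and C1qc among them. Cd68 and Fcgr3 exceeded background on all 4 arrays. Cd68 read 182 and 252.5 in LM and 192.5 and 174 on the KO-labelled arrays, and Fcgr3 148 and 114 against 147.5 and 149. The 4 tested myeloid markers, Cd68, Csf1r, Fcgr3 and Lyz2, had differences from -0.67 to 0.12, and their part in the Hmox1 values was not tested.

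Srxn1, sulfiredoxin, which restores overoxidized peroxiredoxins, had 4 probe sets, of which 1 was tested. That one, 1419942_at, read 83.7 and 85.6 in LM and 26.9 and 123.8 on the KO-labelled arrays. The LM arrays nearly coincided while the KO-labelled arrays bracketed them, and the difference was -0.46 ± 0.60 (log2, SE; limma adjusted p = 0.924), or 0.37 without KO replicate 1. The probe set 1426875_s_at exceeded background on KO replicate 2 alone, and the remaining 2 stayed below it on all arrays.

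Slc7a11, the transporting subunit of the cystine-glutamate exchanger that feeds glutathione synthesis, was not above background on any array. Its probe set 1420413_at read 5.8 and 6.6 in LM and 20.4 and 23.5 on the KO-labelled arrays. These values do not overlap, but all 4 lie far under background, so no fold is given and no test was made. The other probe set read 2.3 and 17.6 in LM and 1.3 and 16.7 on the KO-labelled arrays, with replicate 1 low and replicate 2 high in both groups.

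The promoters of Srxn1 and Nqo1 are shown as the member promoter with the most matches and as one with none. Srxn1 held 3 matches, beginning 158 and 45 bases before the start and 28 bases after it, and Nqo1 held none in this window. Nfe2l2 and Slc7a11 held 1 match each and Keap1 none. Of the 7 members with a promoter in the RefSeq table, 5 had a match at 1 start site or more, against 30.8% of all genes in that table. Most members were listed as targets of NRF2, which binds such elements, so this share describes the list and is no result of these data. A match is a description of letters, and factor binding was not measured. Capitals again mark the matches.

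Srxn1, chr2:152105274-152105573, plus strand: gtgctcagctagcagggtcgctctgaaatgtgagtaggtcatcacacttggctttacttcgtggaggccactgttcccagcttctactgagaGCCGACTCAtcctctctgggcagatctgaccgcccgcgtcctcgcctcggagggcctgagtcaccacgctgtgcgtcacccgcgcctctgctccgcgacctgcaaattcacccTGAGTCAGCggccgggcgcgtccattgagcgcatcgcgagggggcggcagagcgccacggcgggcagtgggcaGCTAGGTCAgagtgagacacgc
Nqo1, chr8:107403156-107403455, minus strand: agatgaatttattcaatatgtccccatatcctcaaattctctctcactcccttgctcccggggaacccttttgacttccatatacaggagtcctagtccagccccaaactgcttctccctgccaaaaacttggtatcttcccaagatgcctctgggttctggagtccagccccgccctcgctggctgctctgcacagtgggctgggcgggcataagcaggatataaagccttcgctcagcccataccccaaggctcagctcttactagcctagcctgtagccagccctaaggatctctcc

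Beyond the 10 genes, 21 regulators and partners of NRF2 were listed, among them the small Maf proteins, the repressors Bach1 and Bach2, the autophagy receptor Sqstm1 that competes for Keap1, and the beta-TrCP route of NRF2 turnover. Of their 47 probe sets 44 were tested and 0 passed in limma, with 0 at an unadjusted p below 0.05, against 7.70% of all probe sets tested, and the median difference was 0.03 (log2). The smallest p belonged to a probe set of the Maf partner Mafk, which read 255 and 304 in LM and 425 and 366 on the KO-labelled arrays (difference 0.47, limma adjusted p = 0.726). The 2 Mafg probe sets with the next smallest p among the Maf genes differed by 0.54 and 0.64, again with both KO-labelled arrays higher. For Maff the groups overlapped, with a difference of 0.04. Over the 44 probe sets the groups did not overlap for 27.27%, against 36.5% of all probe sets tested. Sqstm1 differed by 0.31 with 1450957_a_at but by -0.32 with 1444021_at, each without overlap, and neither passed. Fbxw11, a beta-TrCP protein, differed by -0.80 with 1447294_at, at 111 and 104.5 in LM and 36.5 and 90.3 on the KO-labelled arrays, the first of which lay below background.

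A longer list of NRF2 targets covered detoxification, iron, NADPH and antioxidant genes. Of its 45 measured genes with 81 probe sets, 54 probe sets of 30 genes were tested, 0 passed in limma and 2 lay at an unadjusted p below 0.05, a share of 3.70% against 7.70% of all probe sets tested. Of the 54, 30 differences were positive and 24 negative, with a median of 0.05 (log2). Both KO-labelled arrays lay above both LM arrays for 12 of the 54 and below both for 14. Such non-overlap held for 48.15% of them, against 36.5% of all probe sets tested. Among those lower were Abcc5 1435685_x_at (-0.37), Blvra (-0.33) and Tkt 1451015_at (-0.31), none of them called. Txn1, thioredoxin, the substrate of the Txnrd1 enzyme, had the smallest p: it read 4946 and 5238 in LM and 7063 and 6624 on the KO-labelled arrays, a difference of 0.43 ± 0.09 (SE), or 1.34-fold, with a limma adjusted p of 0.119. A second, dim Txn1 probe set read 114 and 109 in LM and 158.5 and 65.0 on the KO-labelled arrays, where the groups overlapped. For the genes that follow, the probe set with the smallest p is given first. The superoxide dismutase Sod1 followed with 0.15 ± 0.06 (limma adjusted p = 0.625). Its other tested probe sets were mixed. 1451124_at differed by 0.14 with both KO-labelled arrays higher and 1435304_at by -0.35 with both lower. For 1440222_at the groups overlapped, with a difference of 0.05. The glutathione transferases Gstm1 and Gstm2 differed by 0.72 and 0.68 and the oxidative stress-induced growth inhibitor Osgin1 by 0.71, each higher on both KO-labelled arrays with adjusted p-values from 0.647 to 0.677. Gstm1 rested on KO replicate 2, at 386 against 195 on KO replicate 1. Another Gstm1 probe set, 1448330_at, read 174 and 179 in LM and 175 and 341 on the KO-labelled arrays, where the groups overlapped.

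**Figure D3:**
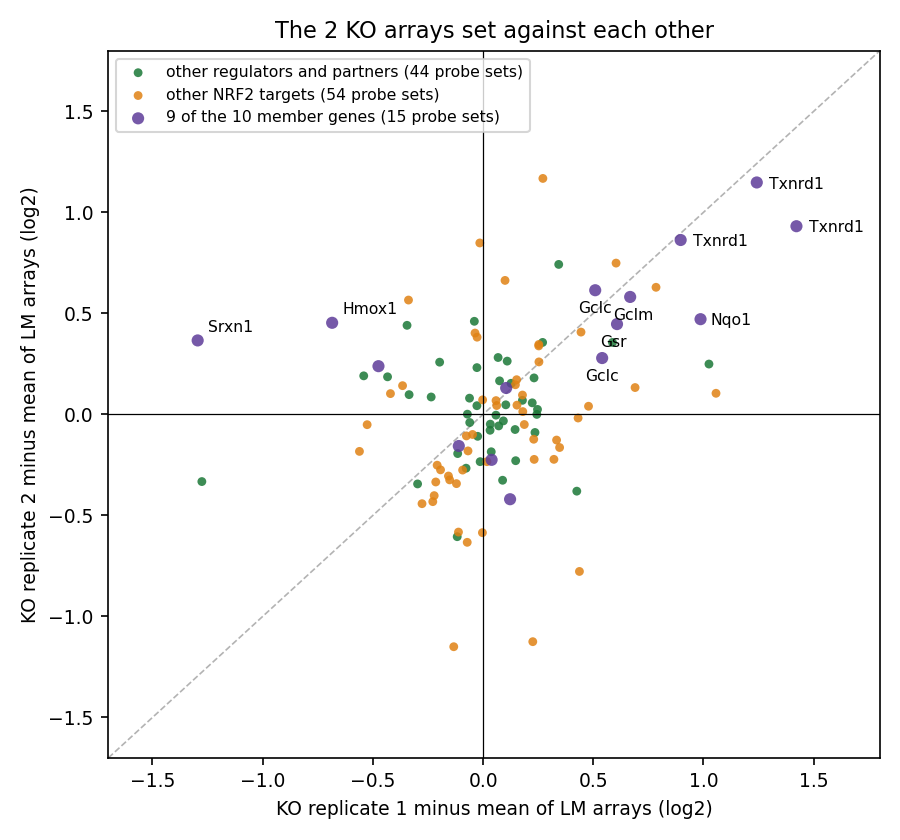
Each tested probe set placed by its normalized log2 signal on KO replicate 1 (horizontal) and KO replicate 2 (vertical), both minus the mean of the LM arrays, for the member genes (purple), the other NRF2 targets (orange) and the regulators and partners (green); on the dashed line the 2 arrays labelled KO give the same difference. The 3 Txnrd1 probe sets lie farthest along it, between 0.86 and 1.42 on both axes, while Hmox1 and the tested Srxn1 probe set lie to the upper left, negative on replicate 1 and positive on replicate 2.

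The pattern of the leading probe set, Txnrd1 1424486_a_at, was compared with all other named probe sets by the root mean square distance of the 4 centred log2 values. The 5 nearest were Ppic, a cyclophilin, at a distance of 0.04, Pigq, which acts in glycosylphosphatidylinositol anchor synthesis, at 0.07, the G protein subunit Gng2, the neuritin gene Nrn1 and the ubiquitin-conjugating enzyme Ube2t, at 0.08 each. Ppic read 299.5 and 307 in LM and 736.5 and 653 on the KO-labelled arrays, close to a 2.22-fold difference, but its limma adjusted p was 0.0891. None of the 5 was called, and Pigq and Ube2t were below background on both LM arrays. The likeness rests on 4 arrays.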

How the data were processed

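The values deposited by the authors are linear intensities, 1 for each probe set on each array, already scaled, with a trimmed mean of 500.0 on every array. The summarisation program is not given in the sources used here. After 64 controls were left out, log2(intensity + 16) values were quantile normalized over 45037 probe sets, of which 34945 carry 1 gene symbol. Differences were fitted over all 26914 probe sets tested with limma 3.58.1 in R 4.3.3 (lmFit, eBayes with an intensity trend), genotype as the only term, 2 residual and 10.5 prior degrees of freedom, two-sided, with Benjamini-Hochberg adjustment. The number of arrays limits the precision, with a median SE of 0.24. The fit was also run on normal data simulated with its own estimated variances, a check of the code that cannot test the intensity trend. Alternatives covered the filter, normalization, pseudocounts of 1 and 64, eBayes settings, gene-level summaries, the replicate block and each array left out. Tables and plots used Python 3.11.15, pandas 2.3.3 and matplotlib 3.10.9.

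All probe sets of the members were named. From each of the 2 pathway lists the 5 probe sets with the smallest p were named, and so were the 5 nearest in pattern to the leading member; further genes were named after their values were seen. Members and lists were chosen with earlier results of these data known. Markers were read with the brightest probe set per gene. Promoter sequences are RefSeq's (GRCm38.p6), and Gclc, Gsr and Hmox1 had no entry.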

Additional observations from a re-analysis of the deposited data

How the results depend on the processing

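The 2 Txnrd1 calls were the only calls among the members in the main analysis, and no lower call among members, and none among Cul3 or the pathway lists, appeared under any alternative. Without the filter on dim probe sets 2 probe sets were called higher and 1 lower in all, 0 of them members; without the eBayes trend limma called 0 higher and 0 lower, 0 of them members, with 2051 at an unadjusted p below 0.05. Median centring called 38 lower. With the brightest probe set of each gene 16 were called higher, and with the mean of all probe sets 19 higher and 15 lower; each held 1 member, Txnrd1, as each gene then counts once. Leaving out LM replicate 1, LM replicate 2, KO replicate 1 or KO replicate 2 gave 48, 67, 99 and 58 higher and 27, 46, 158 and 94 lower, in fits where the lone array is assumed to vary like the other group, and the cause was not tested. The labels do not say that replicate numbers pair the samples, and deviations of same-numbered arrays correlated at -0.02; with the replicate block 31 were called higher and 29 lower, and it changed no member's call. Signs of uncalled differences changed within the fits without 1 array, which ran from -0.28 to 0.014 and -0.42 to 0.12 for the 2 Nfe2l2 probe sets, -0.22 to 0.038 for Keap1, -0.48 to 0.24 for the dimmer Gclm, -0.021 to 0.26 for the dimmer Gsr, -0.69 to 0.45 for Hmox1, -1.29 to 0.37 for Srxn1, and -0.053 to 0.032, -0.28 to 0.42 and -0.36 to 0.33 for 3 Cul3 probe sets. The brightest Cul3 probe set's -0.01 also became 0.058 with the mean of all probe sets. Signals near background limit what can be said of Hmox1, Srxn1, Nqo1 and Slc7a11.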
